A study of Mus musculus with 44 samples.

Results

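Wild-type macrophages (MFs) that carried the sort label Ly6C+ F4/80low were compared between day 4 and day 2 after muscle injury. The arrays were chosen by their labels alone, as those of untreated wild-type animals with this sort label at day 4 (n = 4) and at day 2 (n = 6), which are 10 of the 44 arrays of the series. By their labels both groups came from untreated WT mice of the strain C57B6/J. No transgene is named for them, and no age of the mice is stated. The genotype was not tested apart from the labels, and the lysozyme genes, which split the day 2 arrays, are given below. The tibialis anterior muscle had been injected with cardiotoxin, a venom toxin that kills muscle fibres, CD45+ blood-lineage cells had been drawn from the muscle with magnetic beads, and the cells had been sorted on Ly6C and on the MF antigen that the gate names. RNA of each sort was read on a 1-colour Affymetrix mouse gene array, and the values are the log2 expression values that the authors made with RMA. Groups used only for comparison were WT Ly6C- F4/80high MFs of day 2 (n = 6), Ly6C+ F4/80low MFs of day 1 in WT (n = 4), and Ly6C+ F4/80low MFs of day 4 (n = 4) and day 2 (n = 5) from PPARg fl/fl, LysM Cre+ mice (KO), in which Cre from the LysM locus deletes Pparg in myeloid cells. KO Ly6C+ MFs of day 1 (n = 4) and KO Ly6C- MFs of day 2 (n = 5) entered only the fit over all 44 arrays. So did WT MFs of day 2 labelled rosiglitazone, a drug that activates PPARg, in the Ly6C+ and Ly6C- gates (n = 3 each). The labels call the arrays biological replicates but give no animal or batch, and the design text speaks of 3 animals without saying how they map to arrays, so p values measure only spread between arrays. That spread was pooled over all 44 arrays of the series, not taken from the 10 alone.

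Damaged muscle draws in Ly6C-high monocytes from the blood. They become inflammatory MFs that take up dead fibres, and within days MFs with little Ly6C prevail, a form known for lipid handling, growth factor release and support of new fibres. Ly6C is a surface protein of young monocytes that is encoded by Ly6c1 and Ly6c2, and Adgre1 encodes the mature MF receptor behind the names F4/80low and F4/80high.

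The 44 arrays held 35556 probe sets, from which 19938 genes could be read, and array medians lay between 6.64 and 6.77. The day 2 group was also read as replicates 1 to 3 and replicates 4 to 6, a split chosen with earlier results of these data known. In the fit over all arrays 2414 of 19938 genes (12.1%) differed between these sets, 1072 higher and 1342 lower in replicates 1 to 3 (5.38% and 6.73%, adjusted p below 0.05, limma). With array weights 570 differed, and 93 when only these 6 arrays were fitted. Each difference was therefore also computed against each set alone. Differences are day 4 minus day 2 in log2 units with their standard error (SE), adjusted p values come from limma over all genes, and a gene was called to rise or fall where the adjusted p was below 0.05. Sequence shared within the Ly6, Lyz, Gbp, Ifit, Olfr and histone families can let probes read a close relative, so values of single members of these families are uncertain. No detection calls were used here, so whether a value below the array medians lies above background was not tested, and a difference that starts or ends at such a value may understate the change.

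In RNA of the sort markers the day 4 arrays differed from the day 2 arrays with the same sort label. The gate was set on surface protein, which arrays do not measure, so whether the cells matched the gate was not tested. A probe set that reads both Ly6c1 and Ly6c2 gave 9.78, 9.58, 10.08 and 10.09 at day 4, against 11.74 to 12.15 in Ly6C+ MFs of day 2. In Ly6C- MFs of day 2 it read 8.61 to 8.94, so every day 4 array lay between the day 2 gates and outside the range of either. The difference was -2.02 against day 2 Ly6C+ MFs (SE 0.17, adjusted p = 2.80e-13) and 1.10 against day 2 Ly6C- MFs (SE 0.17, adjusted p = 1.35e-06), and a further probe set of both genes gave -1.92 and 0.99. Adgre1 read 12.18, 12.32, 12.28 and 12.29 at day 4, against 11.33 to 11.68 with a median of 11.55 at day 2 in Ly6C+ MFs. All 4 day 4 arrays lay above all day 2 arrays of this label and also above the Ly6C- F4/80high MFs of day 2, which ran from 11.94 to 12.16. The rise in Adgre1 was 0.74 (SE 0.06, adjusted p = 8.32e-13). The day 4 group is called by its label below, although its Ly6c and Adgre1 values lay outside those of the day 2 arrays with the same label. In bulk RNA of a sort, fewer cells of a type and less RNA per cell cannot be told apart.

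**Figure D1:**
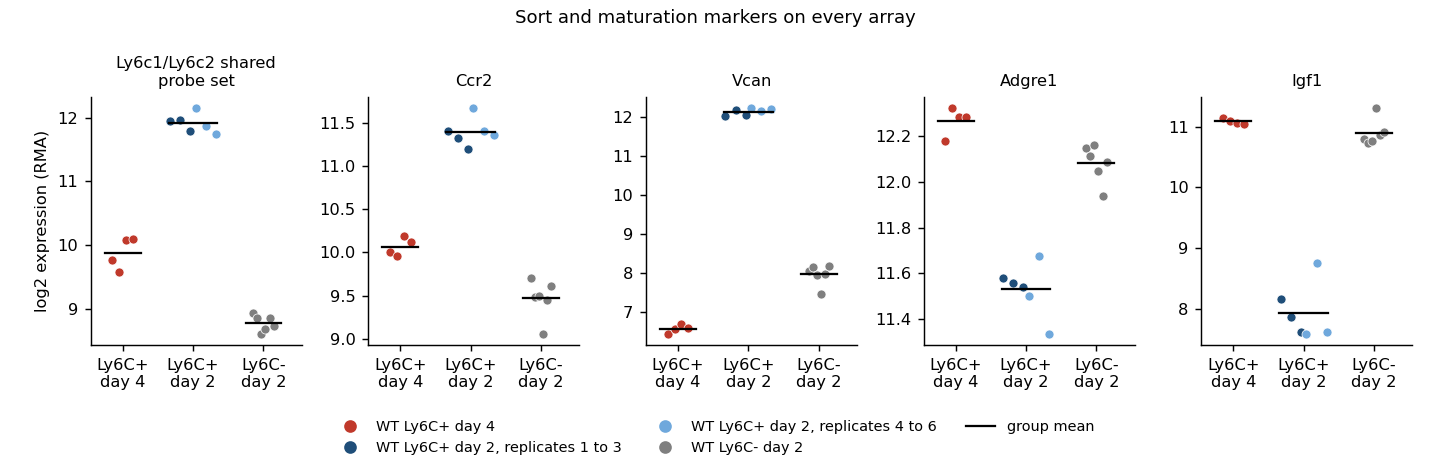
Log2 expression (RMA, each panel with its own axis) of a probe set reading both Ly6c1 and Ly6c2, of Ccr2, Vcan, Adgre1 and Igf1, with 1 point per array and a line at each group mean, for WT Ly6C+ MFs of day 4, WT Ly6C+ MFs of day 2 (replicates 1 to 3 dark blue, 4 to 6 light blue) and WT Ly6C- MFs of day 2. The Ly6c probe set at day 4 (9.58 to 10.09) lies between both day 2 gates, while Adgre1 and Igf1 at day 4 lie with or above the day 2 Ly6C- arrays.

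The change from day 2 to day 4 reached about every second gene. Of 19938 genes tested, 9921 (49.8%) passed, 4739 higher (23.8%) and 5182 lower (26.0%) at day 4. Most of these changes were small, and the median difference over all genes was -0.09. A rise of at least 1 log2 unit was seen in 828 genes (4.15%) and a fall of that size in 483 (2.42%). At 2 log2 units or more, 127 genes rose (0.637%) and 101 fell (0.507%). In 6034 genes (30.3%) the day 4 and day 2 arrays did not overlap, and of these 3349 were called higher (16.8%) and 2554 lower (12.8%). Against day 2 replicates 1 to 3 alone 10193 genes (51.1%) passed, with 23.7% higher and 27.5% lower, and against replicates 4 to 6 alone 7825 (39.2%), with 21.3% higher and 18.0% lower. In the same direction against both sets 6132 genes passed (30.8%), 3543 higher (17.8%) and 2589 lower (13%). Counts of list members below are to be read against 23.8% higher and 26.0% lower among all genes.

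**Figure D2:**
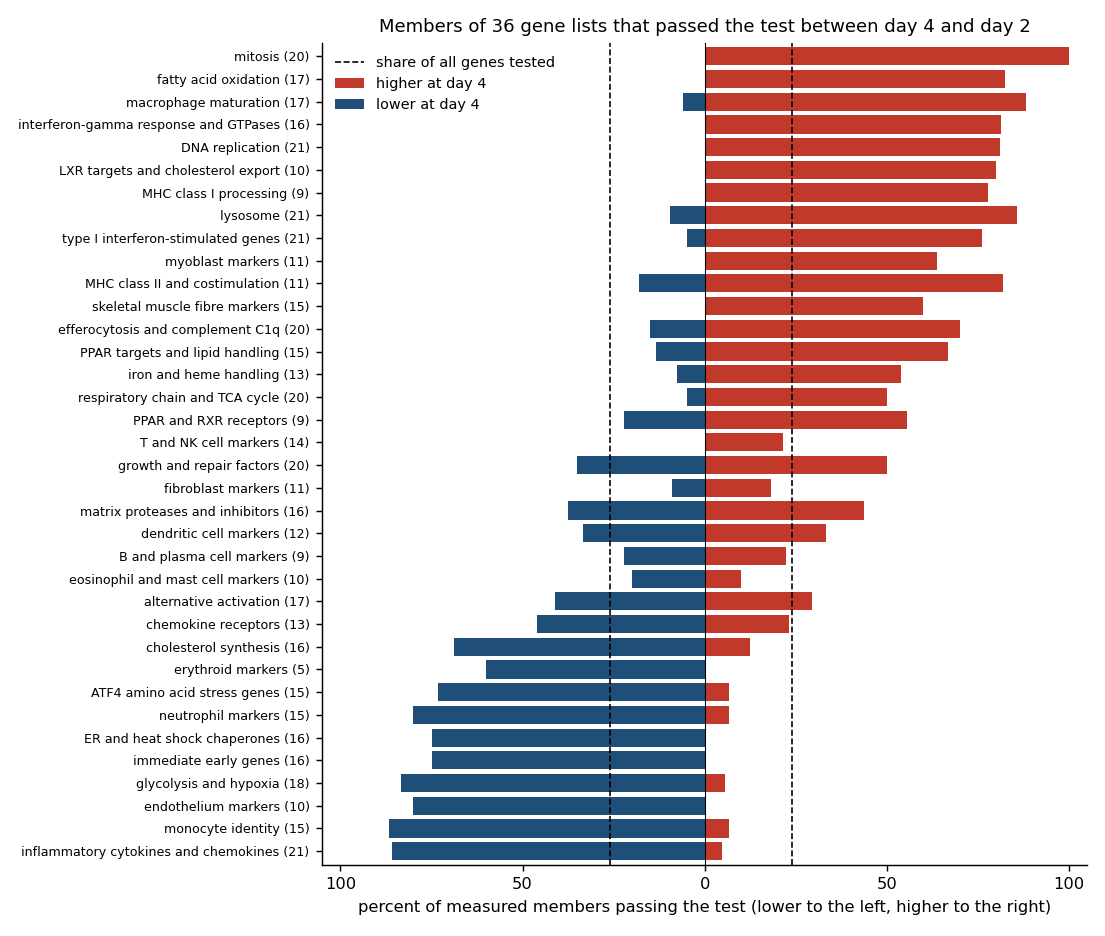
Percent of the measured members of each of 36 gene lists that were called higher (red, to the right) or lower (blue, to the left) at day 4 than at day 2, with the number of measured members in brackets and dashed lines at the shares over all genes tested (23.8% higher, 26.0% lower), ordered by the share higher minus the share lower. Mitosis, with 20 of 20 members higher, stands at the upper end, and inflammatory cytokines and chemokines, with 18 of 21 lower, at the lower end.

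The largest measured rise was that of Dnase1l3, a secreted DNase that degrades DNA in chromatin and in debris of dying cells. It read 10.13, 10.52, 10.45 and 10.39 at day 4, against 5.51 to 5.996 with a median of 5.76 at day 2. The difference was 4.62 (SE 0.11, adjusted p = 3.62e-31). Leading rises and falls were picked among genes whose day 4 and day 2 arrays did not overlap, so lack of overlap in them was set by that rule. Npl, a lyase that breaks down sialic acids, read 11.33, 11.30, 11.23 and 11.11 at day 4, against 6.999 to 7.39 with a median of 7.23 at day 2, with a difference of 4.04 (SE 0.12, adjusted p = 7.49e-28). Atp6v0d2, a subunit of the proton pump that acidifies lysosomes, read 10.67, 10.62, 10.69 and 10.58 at day 4, against 6.19 to 7.31 with a median of 6.84 at day 2. The day 4 arrays lay closer together than the day 2 arrays, and the difference was 3.89 (SE 0.18, adjusted p = 6.75e-21).

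Other leading rises encoded proteins of several kinds. Cd72, an inhibitory lectin best known from B cells, rose by 3.85 (SE 0.21, adjusted p = 1.12e-18), with 11.78 to 11.84 on the day 4 arrays against 7.40 to 8.40 at day 2. Gpr34, a lysophosphatidylserine receptor typical of microglia, read 7.83, 8.45, 8.15 and 8.13 at day 4, against 4.73 to 5.20 with a median of 4.99 at day 2, a difference of 3.15 (SE 0.14, adjusted p = 4.31e-22). Cd5l, a scavenger protein secreted by tissue MFs, rose by 3.15, and Ccl8, a chemokine, by 3.25. Both were higher on every day 4 array than on any day 2 array, as the rule for picking leading rises required. Cd5l in day 2 replicate 5 stood at 7.03, apart from 5.68 to 6.08 on the other arrays of that day. Serpinb6a, an intracellular protease inhibitor, rose by 3.55, Gbgt1, a glycosyltransferase, by 3.17, Olfr111, an olfactory receptor gene, by 3.72, and the histone gene H2bc4 by 3.04. The other leading rises, Igf1, Ccna2, Ccnb2 and Cxcl9, are given with their lists below.

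The largest measured fall was that of Serpinb10, a protease inhibitor of haematopoietic cells. It read 4.15, 4.36, 4.27 and 4.66 at day 4, against 10.01 to 11.45 with a median of 10.64 at day 2. Its difference was -6.30 (SE 0.17, adjusted p = 4.12e-29), and against day 2 Ly6C- MFs it was -0.43 (adjusted p = 0.0496). Ly6a2, a Ly6 family gene, read 5.93, 5.20, 5.66 and 5.58 at day 4, against 11.003 to 12.01 with a median of 11.29 at day 2, with a difference of -5.82 (SE 0.17, adjusted p = 2.73e-28). Vcan encodes versican, a matrix proteoglycan made by classical monocytes, and it read 6.43, 6.55, 6.68 and 6.59 at day 4, against 12.03 to 12.24 with a median of 12.17 at day 2. The difference was -5.58 (SE 0.11, adjusted p = 4.39e-34), and against day 2 Ly6C- MFs the difference was -1.40.

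Several receptors were among the leading falls. Clec4e, the lectin Mincle that senses microbes and dead cells, fell by 4.72, and Trem1, which amplifies inflammatory signals, fell by 4.42. Tarm1, an activating receptor of myeloid cells, fell by 3.67, and Olr1, a receptor for oxidised LDL, fell by 3.95. B3gnt5, a glycosyltransferase of glycolipid synthesis, fell by 4.34 (SE 0.38, adjusted p = 8.56e-13), with 7.93 in day 2 replicate 4 and 9.76 to 10.42 on the other day 2 arrays. Ifitm6, an interferon-induced membrane protein gene of monocytes, fell by 3.68, Hp, which encodes haptoglobin, by 3.47, and F10, which encodes coagulation factor X, by 3.44. The 4 remaining leading falls, Nr4a2, Nr4a3, Cxcl3 and Il6, belong to the lists of immediate early and inflammatory genes.

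**Figure D3:**
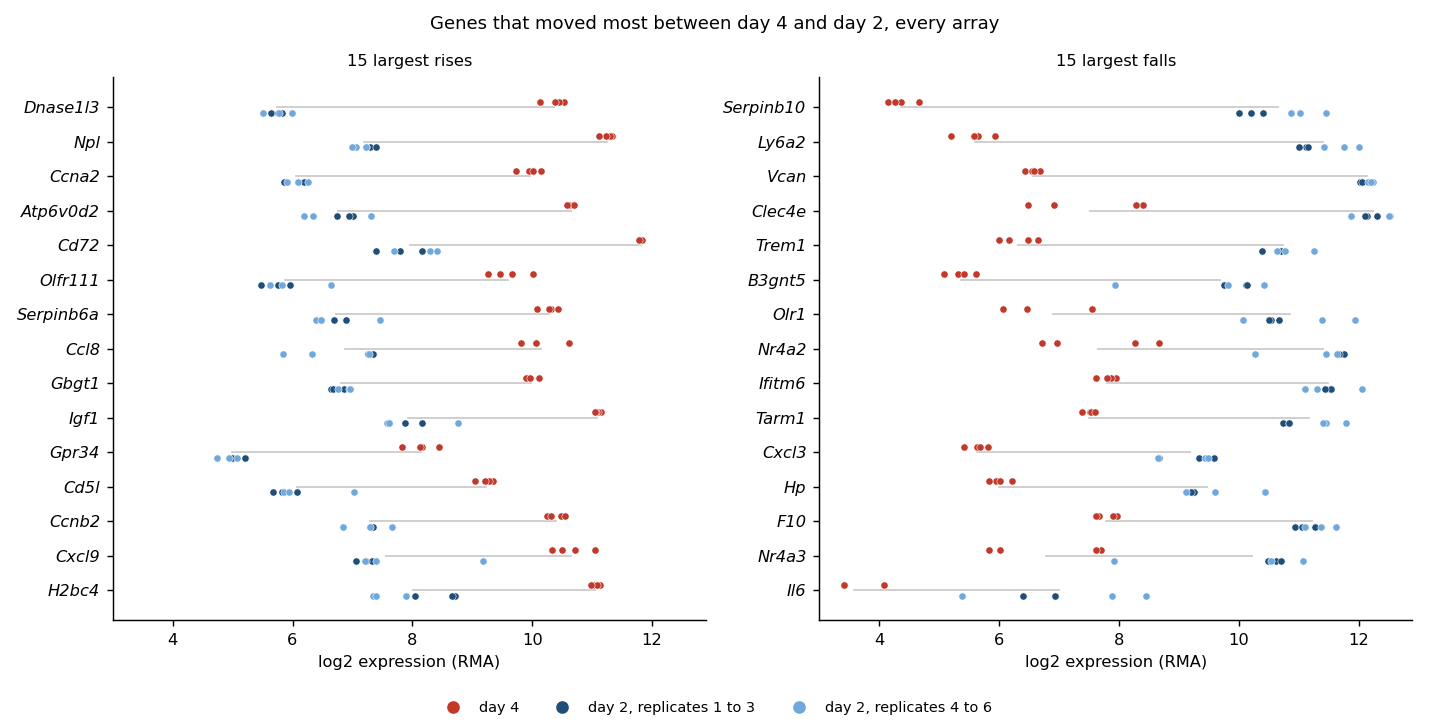
Log2 expression (RMA) on every array of the 15 largest rises (left) and 15 largest falls (right) among genes whose day 4 and day 2 arrays did not overlap and that passed against both day 2 sets, with day 4 in red above day 2 in blue and a grey line between the group means. Dnase1l3 reads 10.13 to 10.52 at day 4 against 5.51 to 5.996 at day 2, and Serpinb10 reads 4.15 to 4.66 against 10.01 to 11.45.

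Markers of monocytes fell and markers of mature MFs rose. Of 15 measured monocyte identity genes 13 fell and 1 rose, with a median difference of -2.43. Ccr2, the receptor through which monocytes leave the marrow and enter injured tissue, read 10.005, 9.96, 10.19 and 10.12 at day 4, against 11.20 to 11.68 with a median of 11.39 at day 2, a difference of -1.33 (SE 0.12, adjusted p = 4.29e-12), and it remained 0.60 above the day 2 Ly6C- MFs. Fn1, which encodes fibronectin, fell by 2.43 and Plac8 by 2.11. Mgst1, a glutathione transferase, was the member that rose (0.80), and Adgre4, a relative of Adgre1, was not called (0.10). Itgam, the integrin CD11b of all myeloid cells, fell by 0.71.

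Of 17 measured MF maturation genes 15 rose and 1 fell, with a median of 1.17. Cx3cr1, the fractalkine receptor, read 11.20, 11.15, 11.004 and 11.21 at day 4, against 8.90 to 10.13 with a median of 9.33 at day 2, a difference of 1.66 (SE 0.19, adjusted p = 6.66e-10). The rise held at 1.66 against either day 2 set. Fcrls, an Fc receptor-like scavenger gene, rose by 2.68, Folr2, a folate receptor of tissue MFs, by 2.39, Siglec1, the sialic acid receptor CD169, by 2.26, and Trem2, a lipid-sensing receptor, by 1.88. Mrc1, the mannose receptor, was the member that fell, by 0.26, which was not called against replicates 4 to 6 (-0.21), and Timd4 was not called.

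Genes for the uptake and breakdown of dead cells rose. Axl and Mertk are receptors that bind dead cells through the bridging protein Gas6, and Mfge8 is another bridging protein. Axl read 11.24, 11.26, 11.37 and 11.31 at day 4, against 8.69 to 9.04 with a median of 8.78 at day 2. The groups were clear of each other and the difference was 2.50 (SE 0.13, adjusted p = 2.85e-19). Gas6 rose by 2.51, Mertk by 2.14 and Mfge8 by 2.53, while Tyro3, the third receptor of that family, fell by 0.18. Of complement C1q, which tags dying cells, C1qa read 12.12, 12.20, 12.17 and 12.25 at day 4, against 8.83 to 10.08 with a median of 9.59 at day 2. Its rise of 2.65 (SE 0.21, adjusted p = 3.27e-14) was 2.21 against replicates 1 to 3 and 3.10 against replicates 4 to 6. C1qc rose by 2.05 and C1qb by 1.01. In the whole list of efferocytosis and C1q genes 14 of 20 rose and 3 fell, and 10 rose against both day 2 sets.

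Of 21 lysosomal genes 18 rose and 2 fell, with a median of 0.49. Besides Atp6v0d2, the leading members were the glycosidases Glb1 (1.79), Hexa (1.15) and Gaa (1.04), each with day 4 arrays that spread over less than 0.15. Glb1, the lysosomal beta-galactosidase, read 10.42, 10.38, 10.38 and 10.29 at day 4, against 8.20 to 9.08 with a median of 8.58 at day 2. The cathepsins Ctss, Ctsd, Ctsl, Ctsz, Ctsk and Ctsb rose by 0.75, 0.68, 0.59, 0.49, 0.44 and 0.34. Atp6v1h, another pump subunit, fell by 0.65, so the pump subunits did not move together, and Lamp2 was not called.

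Growth and repair factors split. Of 20 measured, 10 rose and 7 fell, and each of these also passed against both day 2 sets. Igf1, which drives growth of muscle precursors and fibres, read 11.14, 11.10, 11.07 and 11.04 at day 4, against 7.58 to 8.76 with a median of 7.74 at day 2. The 4 day 4 arrays lay closer together than the day 2 arrays, the rise was 3.15 (SE 0.18, adjusted p = 1.94e-18, 8.9-fold), and against day 2 Ly6C- MFs the difference was 0.19 and not called. Gdf3, a TGF-beta family ligand, read 9.32, 9.37, 9.27 and 9.40 at day 4, against 7.92 to 8.55 with a median of 8.21 at day 2, a rise of 1.10 (SE 0.12, adjusted p = 4.10e-10). Gdf3 at day 4 differed by -0.13 from the day 2 Ly6C- MFs, which was not called. The platelet-derived growth factor genes Pdgfc, Pdgfb and Pdgfa rose by 2.56, 1.89 and 0.73, Vegfb by 1.12, Hgf by 1.04 and Igf2 by 0.76.

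The members that fell act in new vessels, inflammation and wound closure. Vegfa, the main angiogenic factor, read 7.50, 7.57, 8.93 and 8.72 at day 4, against 9.48 to 11.82 with a median of 11.57 at day 2, a difference of -3.03 (SE 0.38, adjusted p = 9.92e-09). Day 4 replicates 3 and 4 (8.93 and 8.72) stood above replicates 1 and 2 (7.50 and 7.57), and day 2 replicate 4 (9.48) stood below the other day 2 arrays (11.14 to 11.82). Il10, the anti-inflammatory cytokine, fell by 3.03, with 8.85 in day 2 replicate 4 as its lowest day 2 value. Inhba, a subunit of activin A, fell by 2.60, Osm and Nrg1 each by 2.14, Hbegf by 0.89 and Tgfb2 by 0.28. Tgfb1 rose by 0.38, while Tgfb3, Bmp2 and Fgf2 were not called.

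Matrix proteases and their inhibitors exchanged members. Timp1, an inhibitor of metalloproteases, read 7.71, 7.81, 7.66 and 7.67 at day 4, against 9.94 to 10.50 with a median of 10.31 at day 2, a fall of 2.57 (SE 0.14, adjusted p = 9.97e-19). Timp2, its relative, read 11.97, 12.06, 11.90 and 11.96 at day 4, against 9.30 to 9.87 with a median of 9.67 at day 2, a rise of 2.32 (SE 0.11, adjusted p = 5.78e-21). Both changes were free of overlap between arrays. Mmp27, Mmp12, Mmp13, Mmp14 and Mmp2 rose by 2.55, 1.75, 1.47, 1.13 and 0.63, and Mmp19, Plaur and Mmp8 fell by 2.39, 1.22 and 0.87, so that 7 of 16 members rose and 6 fell. Of genes used as signs of alternative activation 5 of 17 rose and 7 fell, with a median of -0.003. Arg1, the arginase that competes with nitric oxide synthase, fell by 1.998, and Chil3, a chitinase-like protein, by 2.57. Clec10a and Mgl2, galactose-type lectins, rose by 1.43 and 1.11, and Retnla, which has day 4 and day 2 arrays that overlap, by 0.87.

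Inflammatory cytokines and chemokines fell nearly as a whole. Of 21 measured 18 fell and 1 rose, with a median of -1.75, and 15 fell against both day 2 sets. Il6 read 3.42, 3.41, 3.42 and 4.08 at day 4, against 5.37 to 8.45 with a median of 6.93 at day 2. The difference was -3.41 (SE 0.30, adjusted p = 1.24e-12), and the mean at day 1 had been 9.56. Cxcl3, a chemokine for neutrophils, read 5.41, 5.63, 5.82 and 5.68 at day 4, against 8.65 to 9.58 with a median of 9.39 at day 2, a difference of -3.56 (SE 0.27, adjusted p = 2.15e-14), with 11.55 at day 1. The other neutrophil chemokines Cxcl2 and Cxcl1 fell by 2.09 and 1.80, Tnf by 1.86, Il1a by 2.10, and the monocyte chemokines Ccl2 and Ccl7 by 1.23 and 1.08. Il18 was the member that rose (0.41), and it was not called against replicates 4 to 6. Without any 1 of the 4 day 4 arrays, or without day 2 replicate 1, 2, 3 or 6, no member of this list passed as higher. Ccl5 and Il12b were not called.

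Some of these genes split the day 4 arrays. Il1b, the cytokine IL-1 beta, read 7.64, 8.17, 10.09 and 9.93 at day 4, against 11.67 to 12.63 with a median of 12.31 at day 2. Ptgs2, the inducible cyclooxygenase, read 8.23, 8.07, 10.53 and 10.55 at day 4, against 12.05 to 12.999 with a median of 12.62 at day 2. In both genes day 4 replicates 3 and 4 were higher than replicates 1 and 2, and all 4 remained below day 2. The differences were -3.32 (SE 0.45, adjusted p = 6.46e-08) and -3.26 (SE 0.39, adjusted p = 2.47e-09). Without day 4 replicates 3 and 4, a split chosen after the values were seen, 6569 genes passed in all, against 9921 with them.

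The same day 4 arrays differed in immediate early genes, which are switched on within minutes of a stimulus. Of 16 measured 12 fell and none rose, with a median of -0.54, and 7 fell with day 4 replicates 3 and 4 alone. Nr4a2, a nuclear receptor of this class, read 6.97, 6.72, 8.66 and 8.27 at day 4, against 10.27 to 11.76 with a median of 11.64 at day 2. Nr4a3 read 6.02, 5.84, 7.69 and 7.61 at day 4, against 7.93 in day 2 replicate 4 and 10.49 to 11.08 on the other day 2 arrays. The differences were -3.75 (SE 0.37, adjusted p = 2.47e-11) and -3.44 (SE 0.53, adjusted p = 8.31e-07). Nr4a1 fell by 2.19 and Ier3 by 1.56. Fos and Jun, subunits of the factor AP-1, were not called, and Fos stood at -0.33.

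**Figure D4:**
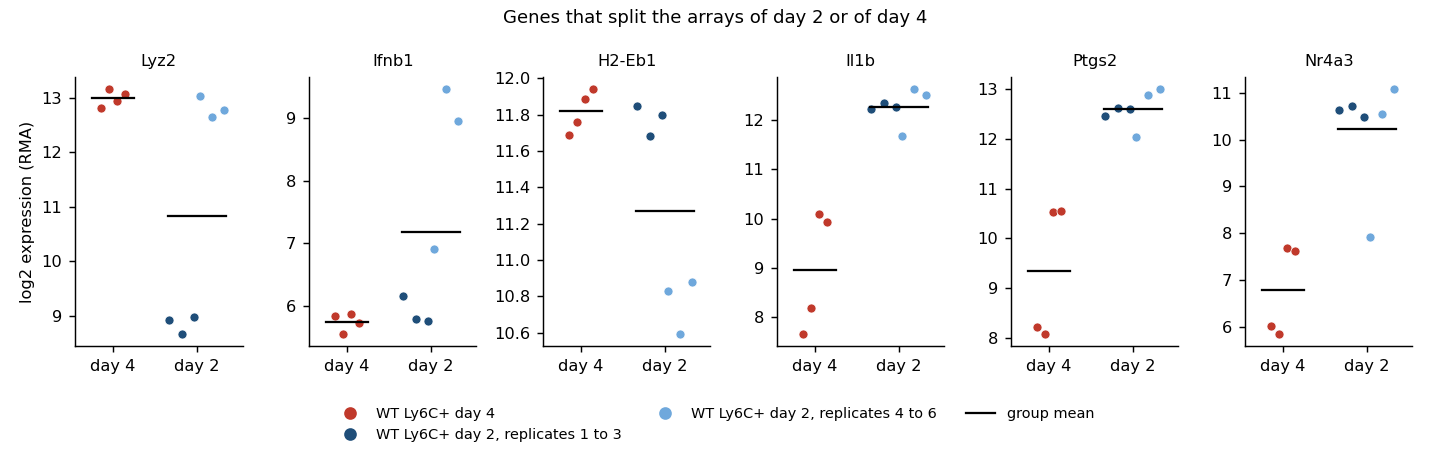
Log2 expression (RMA, each panel with its own axis) on every array of Lyz2, Ifnb1 and H2-Eb1, in which day 2 replicates 1 to 3 (dark blue) and 4 to 6 (light blue) differ, and of Il1b, Ptgs2 and Nr4a3, in which day 4 replicates 1 and 2 lie below 3 and 4 (red, in order of replicate). Lines mark the means, and the Lyz2 mean at day 2 of 10.84 falls in a gap between 8.99 and 12.64.

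Markers of neutrophils moved in the same direction as the inflammatory genes. Of 15 such markers 12 fell and 1 rose, with 7 lower after quantile normalization, and the mean over the list ran from 6.29 to 6.36 on the day 4 arrays and from 6.95 to 7.19 on the day 2 arrays. Il1r2, the decoy receptor for IL-1, fell by 2.92, Lcn2, a siderophore-binding protein, fell by 2.82, and S100a9 and S100a8 fell by 0.93 and 0.89. Of genes made almost only in neutrophils, Ly6g stood at -0.41, Ngp at -0.31 and Camp at -0.21, and Retnlg was not called. The part of neutrophil RNA in the fall of the inflammatory genes was not tested. Among chemokine receptors, Ccr1 fell by 2.73 and Cxcr2 by 1.38, and Cxcr3 rose by 1.10.

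Genes of glycolysis and of the hypoxia response fell in 15 of 18 cases and rose in 1, with a median of -1.01, and 12 fell against both day 2 sets. The median was -1.22 against replicates 1 to 3 and -0.70 against replicates 4 to 6. The list mean of day 2 replicate 4 was 10.01, against 10.65 to 11.1 on the other day 2 arrays and 9.52 to 9.66 at day 4. Slc2a1, the glucose transporter GLUT1, read 9.68, 9.42, 9.60 and 9.59 at day 4, against 11.18 to 12.49 with a median of 12.10 at day 2, a difference of -2.33 (SE 0.21, adjusted p = 2.29e-12). The day 4 arrays lay within 0.26 of each other, and the day 2 arrays spread over 1.31. Ero1a, an oxidase of the endoplasmic reticulum induced in hypoxia, fell by 2.27, Hif1a, the oxygen-regulated factor itself, by 1.58, and the glycolytic genes Pfkp, Pfkl, Pgk1 and Pkm by 1.31, 1.00, 0.66 and 0.63. Egln3, a prolyl hydroxylase that marks HIF for decay, fell by 2.50, but day 2 replicate 4 (7.33) lay within the day 4 range of 6.90 to 7.44. Aldoa and Tpi1 were not called, and Hk1 rose by 0.28 where Hk2 fell by 1.03.

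Stress response genes followed. Of 15 genes of the ATF4 amino acid response 11 fell and 1 rose. Slc7a11, the cystine transporter that feeds glutathione synthesis, read 7.31, 7.34, 7.83 and 7.55 at day 4, against 9.52 to 11.14 with a median of 10.96 at day 2, a difference of -3.24 (SE 0.39, adjusted p = 2.77e-09), again with the lowest day 2 value in replicate 4. Slc7a5 fell by 1.59, Cebpb by 1.73, Mthfd2 by 1.37, Asns by 1.05 and Atf4 by 0.90. Of 16 chaperones 12 fell and none rose, and 8 fell against both day 2 sets. Against replicates 4 to 6 alone 8 fell and 1 rose. The list mean of day 2 replicate 4 (10.44) lay within that of the day 4 arrays (10.1 to 10.51). The heat shock gene Hspa1a read 8.80, 8.26, 11.19 and 11.16 at day 4, against 9.05 in day 2 replicate 4 and 11.85 to 12.08 on the other day 2 arrays, so the groups overlapped. Its difference of -1.63 (SE 0.55, adjusted p = 0.014) passed against replicates 1 to 3 but not against replicates 4 to 6, and not without day 4 replicate 1 (-1.28) or 2 (-1.099).

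Interferon response genes rose. Interferons act through STAT factors, and IFN-gamma induces large GTPases that attack vesicles of intracellular microbes, as well as antigen presentation. Of 16 measured genes of the IFN-gamma list 13 rose and none fell against all day 2 arrays, with a median of 0.89, and 10 rose against both day 2 sets. Against replicates 1 to 3 alone 12 rose and 2 fell, and against replicates 4 to 6 alone 11 rose and none fell. Cxcl9, a T cell chemokine, read 10.72, 11.05, 10.50 and 10.32 at day 4, against 7.06 to 9.19 with a median of 7.28 at day 2. Day 2 replicate 5 (9.19) stood apart from 7.06 to 7.39 on the other day 2 arrays, yet every day 4 array was higher, and the rise was 3.08 (SE 0.27, adjusted p = 1.19e-12). The immunity-related GTPase Iigp1 read 7.46, 8.27, 7.65 and 7.69 at day 4, against 4.54 to 5.67 with a median of 4.95 at day 2, a rise of 2.76 (SE 0.15, adjusted p = 1.21e-18). The guanylate-binding proteins Gbp4, Gbp8, Gbp3, Gbp9, Gbp7 and Gbp5 rose by 2.74, 2.07, 1.22, 0.93, 0.86 and 0.78, Irgm1 by 1.31 and the factors Irf8 and Irf1 by 1.36 and 0.58. The receptor genes Ifngr1 and Ifngr2 rose by 0.20 and 0.24, and Cxcl10, Socs1 and Cd274 were not called.

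Of 21 measured type I interferon-stimulated genes 16 rose and 1 fell, with a median of 0.78. Ifit2, an RNA-binding antiviral protein, read 10.52, 10.61, 10.73 and 10.90 at day 4, against 7.69 to 9.07 with a median of 8.63 at day 2, a rise of 2.10 (SE 0.28, adjusted p = 2.84e-08). Irf7, the factor that amplifies the response, read 11.65, 11.60, 11.78 and 11.74 at day 4, against 9.88 to 10.97 with a median of 10.65 at day 2, a rise of 1.20 (SE 0.19, adjusted p = 1.83e-06). Ifit3 rose by 1.55, Oas3 by 1.11, Stat2 by 1.07 and Mx1 by 0.88. The member that fell was the ligand gene Ifnb1, which read 5.84, 5.55, 5.88 and 5.73 at day 4, against 6.17, 5.80 and 5.77 in day 2 replicates 1 to 3 and 6.92, 9.45 and 8.96 in replicates 4 to 6. The difference was -0.16 and not called against the first set and -2.69 against the second, so the fall of 1.43 over all 6 arrays rested on replicates 4 to 6. At day 1 the mean of Ifnb1 had been 9.34.

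Promoters of the interferon lists carried the interferon-stimulated response element, searched as GAAA, any 2 bases and GAAA again on either strand, in 6 of 12 IFN-gamma list genes (50%) and 8 of 15 type I genes (53.3%) with a RefSeq promoter, against 605 of 15563 genes tested (3.89%). These are matches of letters in the 250 bases before to 50 after a start site in GRCm38.p6, not measured binding. Among all genes higher at day 4 a match stood in 170 of 3876 (4.39%). The members with a match include Cxcl10, Socs1, Ifit1, Rsad2 and Ifih1, which were not called. The shares describe the lists, and a link to the rise was not tested. The bases before the start site of Irgm1 and Ifit3, the members with the largest rise in their list that hold a match and passed against both day 2 sets, are printed 5′ to 3′ with the matches in capitals. In Irgm1 (chr11:48871421-48871670, minus strand) a pair of matches overlaps close to the start site, and in Ifit3 (chr19:34583279-34583528, plus strand) 2 matches stand apart on the other strand.
Irgm1: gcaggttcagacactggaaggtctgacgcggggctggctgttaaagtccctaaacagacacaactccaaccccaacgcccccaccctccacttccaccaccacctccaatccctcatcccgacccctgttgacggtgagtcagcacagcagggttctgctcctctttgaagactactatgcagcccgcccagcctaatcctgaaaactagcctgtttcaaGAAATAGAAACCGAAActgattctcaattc
Ifit3: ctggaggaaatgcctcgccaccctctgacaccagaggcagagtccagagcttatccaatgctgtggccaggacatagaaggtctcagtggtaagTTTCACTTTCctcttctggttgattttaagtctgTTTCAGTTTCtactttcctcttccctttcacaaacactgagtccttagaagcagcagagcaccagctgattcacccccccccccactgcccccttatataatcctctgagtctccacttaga

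Irgm1 averaged 10.73 ± 0.08 at day 4 (SD, n = 4) and 9.41 ± 0.35 at day 2 (SD, n = 6), a difference of 1.31 (SE 0.22, adjusted p = 4.47e-06). Ifit3 read 11.48, 11.57, 11.67 and 11.79 at day 4, against 8.80 to 10.69 with a median of 10.30 at day 2, a difference of 1.55 (SE 0.38, adjusted p = 8.41e-04), with the lowest day 2 values in replicates 5 and 6 (9.85 and 8.80). The gamma activated site, TTCNNNGAA, stood in 4 of 12 IFN-gamma list promoters (33.3%), against 9.01% of genes tested and 8.51% of genes higher at day 4.

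Of 9 class I processing genes 7 rose and none fell, led by Psmb9 (0.97), an immunoproteasome subunit, Tapbp (0.97) and Tap1 (0.92), which load peptides. Of the class II and costimulation list 9 of 11 rose and 2 fell, but 5 rose against replicates 1 to 3, and the list mean of these 3 arrays (10.12 to 10.18) lay within that of the day 4 arrays (10.09 to 10.25). Ciita, the master regulator of class II genes, read 8.93, 9.08, 9.29 and 9.26 at day 4, against 7.37 to 8.32 with a median of 7.72 at day 2, a rise of 1.36 (SE 0.11, adjusted p = 4.20e-13). The class II chain H2-Eb1 read 11.69, 11.76, 11.89 and 11.94 at day 4, against 11.85, 11.68 and 11.80 in day 2 replicates 1 to 3 and 10.83, 10.59 and 10.88 in replicates 4 to 6. Its rise of 0.55 (SE 0.21, adjusted p = 0.0271) was 0.04 and not called against the first set and 1.05 against the second, and it was not called without day 4 replicate 3 (0.52) or 4 (0.51) or without day 2 replicate 4 (0.46), 5 (0.41) or 6 (0.47). The members that fell were the costimulatory ligands Cd86 (-1.45) and Cd80 (-1.40), which provide the further signal for T cells, and neither had overlapping arrays.

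**Figure D5:**
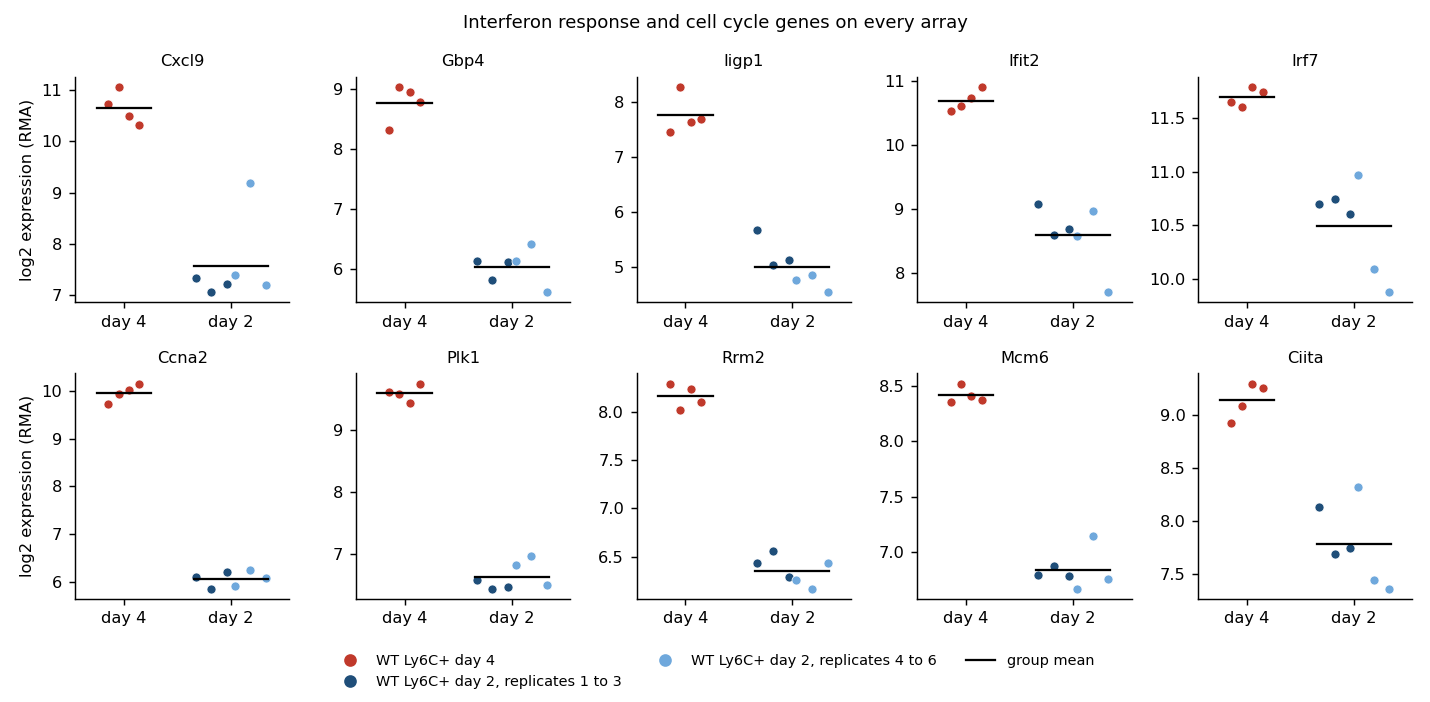
Log2 expression (RMA, each panel with its own axis) on every array of the interferon response genes Cxcl9, Gbp4, Iigp1, Ifit2 and Irf7, the cell cycle genes Ccna2, Plk1, Rrm2 and Mcm6, and Ciita, at day 4 (red) and day 2 (replicates 1 to 3 dark blue, 4 to 6 light blue), with lines at the group means. In each of the 10 genes every day 4 array lies above every day 2 array.

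Cell cycle genes rose as well. All 20 measured mitosis genes were higher at day 4, with a median of 1.88, every day 4 array was above every day 2 array in each of the 20, and all passed against both day 2 sets. Ccna2, cyclin A2, which drives S phase and entry into mitosis, read 9.73, 9.94, 10.01 and 10.15 at day 4, against 5.86 to 6.26 with a median of 6.09 at day 2, a rise of 3.89 (SE 0.17, adjusted p = 7.82e-22). Ccnb2, a B-type cyclin, read 10.25, 10.31, 10.49 and 10.54 at day 4, against 6.85 to 7.66 with a median of 7.30 at day 2, a rise of 3.11 (SE 0.15, adjusted p = 3.13e-20). Plk1, a mitotic kinase, rose by 2.97, Kif11, a spindle motor, by 2.58, Top2a by 2.43, Cdk1, the kinase partner of these cyclins, by 2.40, and Mki67, the proliferation marker Ki-67, by 1.81. The smallest rise was 0.65, in Aurka.

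DNA replication genes rose by less. Of 21 measured 17 rose and none fell, with a median of 0.72. Rrm2 and Rrm1 are the subunits of ribonucleotide reductase, which makes DNA precursors. Rrm2 read 8.29, 8.02, 8.23 and 8.10 at day 4, against 6.17 to 6.56 with a median of 6.36 at day 2, a rise of 1.80 (SE 0.16, adjusted p = 1.16e-12). Rrm1 read 9.37, 9.44, 9.37 and 9.35 at day 4, against 7.52 to 7.83 with a median of 7.65 at day 2, a rise of 1.73 (SE 0.13, adjusted p = 1.57e-14). Of the MCM helicase Mcm6, Mcm7, Mcm5, Mcm2, Mcm3 and Mcm4 rose by 1.58, 1.45, 0.89, 0.70, 0.70 and 0.43. Pcna, Cdt1, Fen1 and Ccne2 were not called, and Pcna stood at -0.16.

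An E2F site, TTTCGCGC or TTTGGCGC on either strand, stood in the promoters of 7 of 17 replication genes (41.2%) and in 1 of 17 mitosis genes (5.88%, Cdk1), against 204 of 15563 genes tested (1.31%). Among all genes higher at day 4 such a site stood in 79 of 3876 (2.04%). E2F factors are known to switch on S phase genes. The bases before the start site of Mcm6 (chr1:128359706-128359955, minus strand) and Cdk1 (chr10:69352913-69353162, minus strand), both in GRCm38.p6 from RefSeq, are printed with the matches in capitals, as the members with the largest rise in their list that hold a match. In Mcm6 the first capitals hold 2 overlapping matches, on opposite strands.
Mcm6: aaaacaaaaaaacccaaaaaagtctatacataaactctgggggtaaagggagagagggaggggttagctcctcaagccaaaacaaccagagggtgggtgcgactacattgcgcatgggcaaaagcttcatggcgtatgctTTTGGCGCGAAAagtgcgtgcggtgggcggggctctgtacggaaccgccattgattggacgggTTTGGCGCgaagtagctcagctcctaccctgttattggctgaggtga
Cdk1: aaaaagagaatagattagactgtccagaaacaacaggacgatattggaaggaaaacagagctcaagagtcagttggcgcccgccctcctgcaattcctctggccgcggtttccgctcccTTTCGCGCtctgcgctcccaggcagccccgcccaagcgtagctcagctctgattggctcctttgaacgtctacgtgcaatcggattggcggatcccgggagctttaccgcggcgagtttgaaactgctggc

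Mcm6 read 8.36, 8.52, 8.41 and 8.38 at day 4, against 6.67 to 7.15 with a median of 6.79 at day 2, a difference of 1.58 (SE 0.12, adjusted p = 5.69e-14). Cdk1 averaged 9.42 ± 0.08 at day 4 (SD, n = 4) and 7.02 ± 0.19 at day 2 (SD, n = 6), a difference of 2.40 (SE 0.14, adjusted p = 1.43e-17). Against day 2 Ly6C- MFs, the 20 mitosis genes were again all higher at day 4, whereas of the replication genes 2 were higher and 8 lower.

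Lipid genes changed by pathway. Pparg, the fatty acid-sensing nuclear receptor, read 9.95, 9.93, 9.86 and 10.03 at day 4, against 9.95 to 11.004 with a median of 10.18 at day 2, and the ranges overlapped. Its difference was -0.37 (SE 0.13, adjusted p = 0.0186), and it was -0.12 and not called against replicates 1 to 3 and -0.62 against replicates 4 to 6. Without day 2 replicate 5 it was -0.23 and without day 4 replicate 3 it was -0.34, and neither was called. Its partner Rxra read 9.64, 9.78, 9.66 and 9.77 at day 4, against 8.22 to 8.85 with a median of 8.65 at day 2, a rise of 1.10 (SE 0.10, adjusted p = 1.74e-12), and Rxrb and Rxrg rose by 0.70 and 0.40. Of 15 PPAR target and lipid handling genes 10 rose and 2 fell. Lpl, the lipase that frees fatty acids from lipoproteins, read 11.05, 10.91, 11.05 and 11.02 at day 4, against 8.57 to 9.40 with a median of 8.998 at day 2, a rise of 2.004 (SE 0.15, adjusted p = 2.23e-14). Pltp, a phospholipid transfer protein, rose by 2.42, the desaturase Fads1 by 1.74, the scavenger receptor Cd36 by 0.82 and the fatty acid-binding Fabp5 by 1.00. The direct repeat DR1 that PPAR and RXR bind, searched as AGGTCA, any base and AGGTCA again on either strand, stood in 0 of 7 promoters of this list and in 0.0514% of genes tested. These exact letters are so rare (8 of 15563 genes) that 7 promoters cannot show a lack of sites. Sites with other letters or outside the promoter window were not searched. Gpat3 and Dgat1, enzymes of triglyceride synthesis, fell by 2.70 and 0.83, and Fabp4, Plin2 and Pdk4 were not called.

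Cholesterol export rose and cholesterol synthesis fell. Nr1h3, the oxysterol receptor LXR alpha, rose by 1.23, and 8 of 10 genes of its list rose with none lower. Abcg1, an exporter of cholesterol, read 11.71, 11.63, 11.71 and 11.65 at day 4, against 8.99 to 10.08 with a median of 9.64 at day 2, a rise of 2.09 (SE 0.17, adjusted p = 1.73e-13). Mylip, which degrades the LDL receptor, rose by 1.34, Abca1 by 1.17 and Apoe by 1.00. Of 16 cholesterol synthesis genes 11 fell and 2 rose. Sqle, which makes squalene epoxide, read 6.68, 6.41, 6.23 and 6.40 at day 4, against 7.64 to 8.80 with a median of 8.05 at day 2, a difference of -1.71 (SE 0.19, adjusted p = 9.79e-10). Cyp51, Insig1, Idi1 and Srebf2, the regulator of the pathway, fell by 1.54, 1.46, 1.38 and 1.23. Dhcr7 and Mvk rose by 0.67 and 0.55.

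Genes of fatty acid oxidation rose in 14 of 17 cases with none lower, led by Decr1 (1.60), Echs1 (1.57), Hadh (1.43) and Acadm (1.10), enzymes of the mitochondrial cycle. Decr1 read 8.09, 8.02, 7.99 and 7.92 at day 4, against 6.16 to 6.62 with a median of 6.41 at day 2. Of 20 respiratory chain and TCA cycle genes 10 rose and 1 fell, but 3 rose against both day 2 sets, as Cox4i1 and Ndufa1 differed by 0.19 and 0.06 from replicates 1 to 3, neither called, and by 0.87 and 0.93 from replicates 4 to 6. Ndufa1 was not called without day 4 replicate 4 (0.45) or day 2 replicate 5 (0.36) or 6 (0.41). Sdha, a subunit of succinate dehydrogenase, rose by 0.66 and passed against both. In iron handling, Slc40a1, the iron exporter ferroportin, read 9.17, 9.02, 8.83 and 8.45 at day 4, against 5.71 to 6.30 with a median of 5.95 at day 2, a rise of 2.86 (SE 0.14, adjusted p = 2.52e-20). Cp, the ferroxidase ceruloplasmin, rose by 1.85, Trf by 1.32 and the haem transporter Slc48a1 by 1.20, in a list with 7 of 13 higher and 1, Hmox1, at -0.28, which was 0.03 and not called against replicates 4 to 6.

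Markers of other cells of the muscle were also read, and the means of several of these lists lay near or below the array medians. Whether such transcripts were present was not tested. Of 15 muscle fibre markers 9 rose and none fell, and the list mean ran from 6.83 to 6.92 at day 4 and from 6.42 to 6.58 at day 2. Acta1, skeletal actin, read 8.85, 8.64, 9.04 and 8.82 at day 4, against 7.36 to 7.73 with a median of 7.49 at day 2, a rise of 1.32 (SE 0.08, adjusted p = 6.68e-17), while the myosins Myh1, Myh2, Myh4 and Myh7 were not called. Of 11 myoblast markers 7 rose and none fell. Des, the intermediate filament desmin, read 7.12, 7.03, 7.84 and 7.57 at day 4, against 5.85 to 6.08 with a median of 5.98 at day 2, a rise of 1.41 (SE 0.11, adjusted p = 1.76e-14). Myog rose by 0.70, and Pax7 and Myf5 were not called. The part of muscle RNA in the other rises, Igf2 among them, was not tested.

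Endothelial markers fell in 8 of 10 cases with none higher, and 6 fell against both day 2 sets. The median was -0.67 against replicates 1 to 3 and -0.29 against replicates 4 to 6. Against day 2 Ly6C- MFs none was called. Cdh5, VE-cadherin, fell by 1.18 (SE 0.13, adjusted p = 6.04e-10), and the list mean ran from 6.45 to 6.53 at day 4 and from 6.59 to 7.26 at day 2. Of 11 fibroblast markers 2 rose and 1 fell, with Postn, the matrix protein periostin, at 1.74 (SE 0.15, adjusted p = 1.53e-12) and Col1a1, Col1a2 and Col3a1 not called. Of 14 T and NK cell markers 3 rose and none fell, and 1 rose against both day 2 sets. Against replicates 1 to 3 alone 1 rose and 2 fell. Cd4, which mouse MFs can also express, rose by 2.15 (SE 0.11, adjusted p = 3.75e-20), and Cd3e, Cd3d and Cd3g, which define T cells, were not called, at -0.10, -0.13 and -0.08. Of 9 B cell markers Cd22 rose by 2.13 and Cd79b by 1.42, Cd79a and Pax5 fell by 0.36 and 0.21, and Ms4a1 was not called. Of 12 dendritic cell markers 4 rose and 4 fell, of 10 eosinophil and mast cell markers 1 rose and 2 fell, and of 5 erythroid markers 3 fell.

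Lysozyme genes could not be compared on the pooled day 2 group. Lyz2 read 12.81, 13.15, 12.94 and 13.06 at day 4, against 8.94, 8.67 and 8.99 in day 2 replicates 1 to 3 and 13.02, 12.64 and 12.78 in replicates 4 to 6. The difference was 2.15 over all arrays (SE 0.68, adjusted p = 0.00851), 4.12 against replicates 1 to 3 and 0.17, which was not called, against replicates 4 to 6. Lyz1 read 10.74, 10.91, 10.44 and 10.29 at day 4, against 12.01, 12.07 and 11.84 in day 2 replicates 1 to 3 and 10.29, 9.95 and 9.998 in replicates 4 to 6. Its difference was -0.43 and not called over all arrays, -1.38 against the first set and 0.51 against the second, so that its direction turned with the set. In KO MFs, with Cre in the LysM locus, Lyz2 averaged 9.65 ± 0.39 at day 4 and 9.49 ± 0.21 at day 2 (SD, n = 4 and 5). Lyz1 averaged 12.52 ± 0.25 and 12.38 ± 0.16 there. In both genes WT day 2 replicates 1 to 3 lay nearer to these KO means than replicates 4 to 6 did. Whether the 2 sets differ in genotype was not tested. Of the other genes named here as called, Gbp5, Ifngr1, Tyro3, Camp and Pax5 were not called against replicates 4 to 6, Ifngr2, Ctsk and Ly6g were not called against replicates 1 to 3, and Mx1 was not called against either set.

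The day 4 arrays were set beside Ly6C- F4/80high MFs of day 2, the other gate of the earlier day. Of 19938 genes 5850 differed (29.3%), 2816 higher (14.1%) and 3034 lower (15.2%) at day 4, against 9921 for the comparison within the Ly6C+ label. The 2 comparisons share the day 4 arrays. Interferon genes stood well above this gate too, with 20 of 21 type I genes and 14 of 16 IFN-gamma list genes higher and none lower. Cxcl9 was 4.13 higher at day 4, Gbp4 3.89, Axl 3.39, Ifit2 3.11 and Ciita 2.57. Dnase1l3 was 4.88 and Slc40a1 2.86 higher. By contrast Atp6v0d2 differed by 0.14, Ccl8 by 0.54, Gas6 by 0.17 and Mmp27 by 0.20, none of them called. Lower at day 4 than in this gate were Cxcl3 (-3.55), Clec4e (-3.47), Arg1 (-3.37) and Vegfa (-2.85), and 13 of 21 inflammatory and 13 of 18 glycolysis and hypoxia genes.

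The same days were also compared in KO MFs, which carry the same sort label. There 8937 genes passed (44.8%), 4447 higher (22.3%) and 4490 lower (22.5%) at day 4. Pparg itself averaged 10.18 ± 0.18 at day 4 and 10.39 ± 0.13 at day 2 in the arrays labelled KO (SD, n = 4 and 5), against 9.94 ± 0.07 at day 4 and 10.31 ± 0.38 at day 2 in WT (SD, n = 4 and 6), so the level read by its probe set was not lower in KO, and whether its probes lie in the deleted part is not stated. Of the 4739 genes that rose in WT, 3867 rose in KO, which is 81.6% of the WT genes and 87.0% of the KO genes, and of the 5182 that fell 2969 fell in KO (57.3% and 66.1%). In opposite directions 4 genes passed. A test of the difference between the genotypes called 6 of 19938 genes (0.0301%), namely Siglech and Cav1 with the higher change in KO (0.01%) and Bach2os, Fam234b, Acp5 and Lrrc39 with the lower (0.0201%), with 1686 at an unadjusted p below 0.05. These calls were not stable, since 0 genes passed (1359 to 1632 at an unadjusted p below 0.05, limma) without WT day 4 replicate 1, 2 or 3, without KO day 4 replicate 3 or 4, or without KO day 2 replicate 1, 2 or 3, 1 passed without WT day 4 replicate 4 or WT day 2 replicate 2, 2 passed without KO day 2 replicate 4, 11 passed without WT day 2 replicate 6, and 36 passed without WT day 2 replicate 4. Gdf3 rose by 0.43 in KO and by 1.10 in WT, and the test of that difference did not pass (adjusted p = 0.177). Type I interferon genes counted 6 higher and 4 lower of 21 in KO, with a median of 0.34, against 16 higher and 1 lower in WT, with a median of 0.78, and no member of that list passed the test of the difference. Dnase1l3, Vcan and Ccna2 changed by 4.71, -5.37 and 3.98 in KO and by 4.62, -5.58 and 3.89 in WT.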

How the data were processed

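RNA of sorted MFs was amplified and hybridised to 44 Affymetrix mouse gene arrays in 10 groups. The deposited table holds log2 values that, per the labels, the authors made with RMA, a method that corrects background, normalizes by quantiles and summarises probes. For the RMA program, its version, the genome build and the probe set design, details were not given in the sources used here. Quantile normalization gives all arrays like distributions, so a shift of most genes would be hidden, and summarised values hold no read depth, so precision is set by the number of arrays.

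Of 35556 probe sets, 21789 were paired with 1 gene symbol by the platform annotation, 1621 with several and 12146 with none. The probe set with the highest mean stood for each of 999 genes that had several, which left 19938 genes. Values ran from 1.46 to 13.6, and no pair of arrays was identical. limma 3.58.1 (R 4.3.3, lmFit and eBayes) was fitted with 1 mean per group over all 44 arrays (34 residual degrees of freedom), and two-sided p values were adjusted over all genes by Benjamini-Hochberg with a threshold of 0.05. A further fit split the day 2 WT groups into replicates 1 to 3 and 4 to 6. On data simulated for day 4 against day 2 over 19938 genes, with normal errors of each gene's residual spread, the fit recovered 100% of 100 changes of 1 log2 unit and 79% of 100 changes of 0.5. No other gene was changed there, whereas 49.8% of genes passed in the data. The day 2 sets were also simulated without a difference, so these rates need not hold for the data. Of 583 genes on 36 lists, 535 were measured.

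Named genes were the 15 largest rises and 15 largest falls that did not overlap and passed against both sets (predicted or unnamed genes left out), 9 fixed genes with the Ly6c probe sets, up to 4 called members of each list, and the 5 genes with the smallest p in the genotype test. Other list members were named as examples after their values were seen. Members and lists were chosen with earlier results of these data known. Promoters came from RefSeq (GRCm38.p6, 250 bases before to 50 after the start). Alternatives were the 10 arrays alone, each day 2 set, median centring, quantile normalization, a mean of at least 6, the mean of probe sets, other variance models, each array left out, and the replicate number as a block.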

Additional observations from a re-analysis of the deposited data

Results flagged for a closer look

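Among the 163 named genes, 30 values lay farther from the rest of their group than Dixon's critical value, over 326 groups tested, where chance gives about 1 in 20. At day 4, replicate 1 stood apart in Cdh5 7.03, Cd4 8.13 and Dpp4 6.904 (log2), replicate 2 in Lrrc39 6.41, replicate 3 in Mmp27 8.98 and replicate 4 in Il6 4.08, Mertk 11.201, Hexa 12.43 and Cyp51 6.75. At day 2, replicate 4 held 12 of the values, each the value of 1 array against the other 5 of that day, namely B3gnt5 7.93, Nr4a2 10.27, Hp 10.44, Nr4a3 7.93, Vegfa 9.48, Il10 8.85, Inhba 7.15, Egln3 7.33, Ero1a 9.46, Hspa1a 9.05, Slc7a11 9.52 and Dpp4 6.73. Replicate 4 was the lowest day 2 array in 10 of these genes and the highest in Hp and Dpp4. Replicate 5 held 6, namely Cd5l 7.03, Cxcl9 9.19, Itgam 11.52, Folr2 10.004, Insig1 10.34 and Slc48a1 9.53, highest in Cd5l, Cxcl9 and Folr2 and lowest in Itgam, Insig1 and Slc48a1. Single values came from day 2 replicate 1 (Axl 9.04), replicate 3 (Actn3 6.58) and replicate 6 (Ifit2 7.69).

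The test of the change from day 2 to day 4 between KO and WT called 6 genes, but these calls were not stable. With the WT and KO Ly6C+ arrays of both days alone 0 passed (1525 at an unadjusted p below 0.05, limma), and 0 to 36 with 1 array left out. The KO change minus the WT change was -0.73 in Bach2os, -0.66 in Fam234b, -0.596 in Acp5 and -0.49 in Lrrc39 (adjusted p = 0.0389 each, limma), and 0.96 in Siglech and 1.26 in Cav1 (adjusted p = 0.0476 each). Acp5, the tartrate-resistant acid phosphatase of MFs and osteoclasts, averaged 11.52 at day 4 and 10.16 at day 2 in KO MFs, against 11.46 at day 4 and 9.51 at day 2 in WT MFs, and both changes passed. Siglech, a receptor of plasmacytoid dendritic cells, averaged 7.14 ± 0.55 at day 4 (SD, n = 4) and 6.43 ± 0.10 at day 2 (SD, n = 5) in KO MFs, against 6.52 ± 0.10 at day 4 (SD, n = 4) and 6.77 ± 0.30 at day 2 (SD, n = 6) in WT MFs, and its WT change (-0.25) was not called. Cav1, which encodes caveolin and was named after its values were seen, averaged 7.698 at day 4 and 7.37 at day 2 in KO MFs, against 7.24 at day 4 and 8.18 at day 2 in WT MFs, and only the WT change passed.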

How the results depend on the processing

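The count of genes that passed between day 4 and day 2 (9921, with 4739 higher and 5182 lower) lay between 7825 and 12341 under the alternatives listed with the methods, and between 8365 and 10473 with 1 array left out (4391 to 4898 higher, 3959 to 5575 lower). It fell to 6569, with 2747 lower, with day 4 replicates 1 and 2 alone, a split chosen after seeing the data. The cause was not tested. With the 10 arrays of both groups alone 7852 genes passed. In that fit Pparg, H2-Eb1, Ifnb1 and Lyz2 were not called (adjusted p = 0.094, 0.084, 0.102 and 0.068, limma). Against Ly6C- MFs the leave-one-out range was 5071 to 6047, and between the day 2 sets 1611 to 3067. The day 2 sets differed in 2414 genes, in 570 with array weights and in 93 when only the arrays of both sets were fitted, which leaves few degrees of freedom. The genotype test, with 6 genes, gave 0 by limma with the WT and KO Ly6C+ arrays of both days alone (1525 at an unadjusted p below 0.05), 525 with WT day 2 as replicates 1 to 3, 20 with 4 to 6, 10 after quantile normalization, 359 with array weights and 0 to 36 with 1 array left out. Of the 163 named genes, over 23 settings, 3598 results kept direction and side of the threshold, 122 fell below it, 9 passed it anew and 1 reversed, Lyz1, at 0.51 against day 2 replicates 4 to 6. The filter on a mean of at least 6 left out 19 of these genes. Across the days, deviations of arrays with the same replicate number correlated at 0.18, 0.007, -0.085 and 0.078. Replicates 1 and 4 correlated best with their own number, and replicates 2 and 3 did not. These values do not settle whether replicate numbers pair the days. With the replicate number as a block over replicates 1 to 4, 8535 genes passed, against 8455 on the same arrays without it, and 41 in the genotype test. Members of the respiratory chain list that rose numbered 5 against day 2 replicates 1 to 3 and 6 with the 10 arrays alone, against 10.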
